A study of Sus scrofa with 12 samples.

Results

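The comparison described here set the infarcted heart muscle of 4 pigs that received AMI/S-endMSCs* against that of 4 pigs that received AMI/Placebo. These were 8 of the 12 arrays of the series, chosen by their titles alone. All pigs were female Large White animals with an acute myocardial infarction (AMI) made by a closed-chest balloon occlusion of a coronary artery followed by reperfusion. AMI/S-endMSCs* pigs were given, into the pericardial sac, the concentrated secretome (the proteins, vesicles and RNA that cells release) of human mesenchymal stromal cells of endometrial origin. Those cells were isolated from menstrual blood and had first been primed with the inflammatory cytokines IFNγ and TNFα. AMI/Placebo pigs were given the medium used to concentrate the secretome. The remaining 4 pigs, AMI/S-endMSCs, were given the same amount of secretome protein from cells that had not been primed. They enter the fit and are named below only where the primed secretome is set against them. The secretomes were thus of human cells in a pig host. Tissue was taken from the anterior wall of the left ventricle, in the area of the infarct, on day 7 post-therapy. Treatment was given some days after the infarct, so day 7 counts from treatment and the infarct was older. The groups are called primed-secretome, basal-secretome and placebo pigs below.

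Each pig gave 1 array, the Affymetrix porcine gene array, on which a set of probes reports the RNA level of a gene as a log2 value, so that a difference of 1 is a 2-fold change. The array held 27558 probe sets, which named 10912 genes, and a gene with several probe sets was represented by whichever set had the highest 12-array mean. Log2 values ran between 0.17 and 13.22 with a median probe set mean of 2.78, which is used below as the dim level. A gene is called dim where its mean was under that level in both primed-secretome and placebo pigs. Levels of different genes cannot be set against each other on this scale, because probes differ in how brightly they bind.

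In the days after an infarct, surviving muscle at its border works beside a young scar. Cardiac muscle cells take most of their energy from fatty acids, which they draw in from lipoproteins, burn in mitochondria through β-oxidation and the citric acid cycle, and turn into ATP. Macrophages clear dead muscle by phagocytosis, guided by complement and Fc receptors, while activated fibroblasts lay down collagen and cross-linking proteins. An infarct sample therefore mixes muscle, macrophages, fibroblasts and vessels, and the RNA of each cell type rises and falls with its share of the tissue. In such bulk tissue, fewer cells of a type and less RNA per cell cannot be told apart.

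Between primed-secretome and placebo pigs, 353 of the 10912 genes were called at an unadjusted p under 0.05 in limma, the threshold of the study, which is 3.23% of those tested. Of these, 213 genes were higher in primed-secretome pigs (1.95%) and 140 were lower (1.28%). An unchanged gene passes this threshold with a chance of 5%, so the number called over all genes did not exceed that level. None of the 27558 probe sets had a Benjamini-Hochberg adjusted p under 0.05 in limma, where 925 had an unadjusted p under 0.05 (3.36%), 529 higher (1.92%) and 396 lower (1.44%), and the smallest adjusted p was 0.342, in a probe set that represents none of these genes. Every one of the 353 called genes had an adjusted p of 1.0 in limma. Below, "called" means only that the unadjusted p of limma was under 0.05, and the 95% intervals of the log2 fold changes come from the same fit without adjustment. Across all genes the median log2 fold change was 0.01, and 51.0% of genes were above 0.

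The spread between pigs was wide relative to these changes. The median SD of a gene was 0.36 over the 4 primed-secretome pigs and 0.37 over the 4 placebo pigs, and the 95% interval of a log2 fold change reached a median of 0.63 to either side. Called changes had a median size of 0.79, ran between -1.43 and 2.92, and 84 of them reached 1 on the log2 scale, 61 higher and 23 lower. In 217 genes the 4 pigs of each group did not overlap at all (1.99% of all genes), 121 with every primed-secretome pig above every placebo pig (1.11%) and 96 with every one below (0.880%). Both conditions, the call and the separation, held for 102 genes, of which 68 were also above the dim level. Leaving out primed-secretome replicate 2 raised the number of called genes to 864, leaving out placebo replicate 4 raised it to 636, and leaving out placebo replicate 3 lowered it to 229. An exact permutation test over 4 and 4 pigs, two-sided, cannot go below 0.0286, so separation without overlap is the clearest pattern that 8 pigs can show for a gene taken alone. An unchanged gene separates with that same probability, and the 1.99% of genes that separated did not exceed it.

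The clearest gene of fuel uptake was LPL, lipoprotein lipase, which frees fatty acids from circulating lipoproteins for uptake by muscle. Its log2 values were 5.67, 4.83, 6.06 and 6.20 in primed-secretome pigs, against 3.76, 4.77, 4.03 and 4.34 in placebo pigs. Every primed-secretome pig stood above every placebo pig, although primed-secretome replicate 2 and placebo replicate 2 nearly met. The log2 fold change was 1.47 ± 0.33 (SE), a 2.76-fold higher level, with a 95% interval 0.77 to 2.17. ACSL1, the long-chain acyl-CoA synthetase that primes fatty acids for oxidation, had values of 6.69, 5.45, 6.50 and 6.28 in primed-secretome pigs and 5.12, 5.29, 4.88 and 5.37 in placebo pigs. The groups were again separate, with the lowest primed-secretome value close above the highest placebo value, and the log2 fold change was 1.07 ± 0.29 (95% interval 0.44 to 1.69). A second probe set of ACSL1 gave 1.08. IDH2, the mitochondrial NADP-dependent isocitrate dehydrogenase, was tight in placebo pigs, at 5.86, 6.02, 6.04 and 5.96, and spread upward in primed-secretome pigs, at 6.84, 6.21, 7.80 and 6.84, a log2 fold change of 0.95 ± 0.30 (95% interval 0.30 to 1.60).

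**Figure D1:**
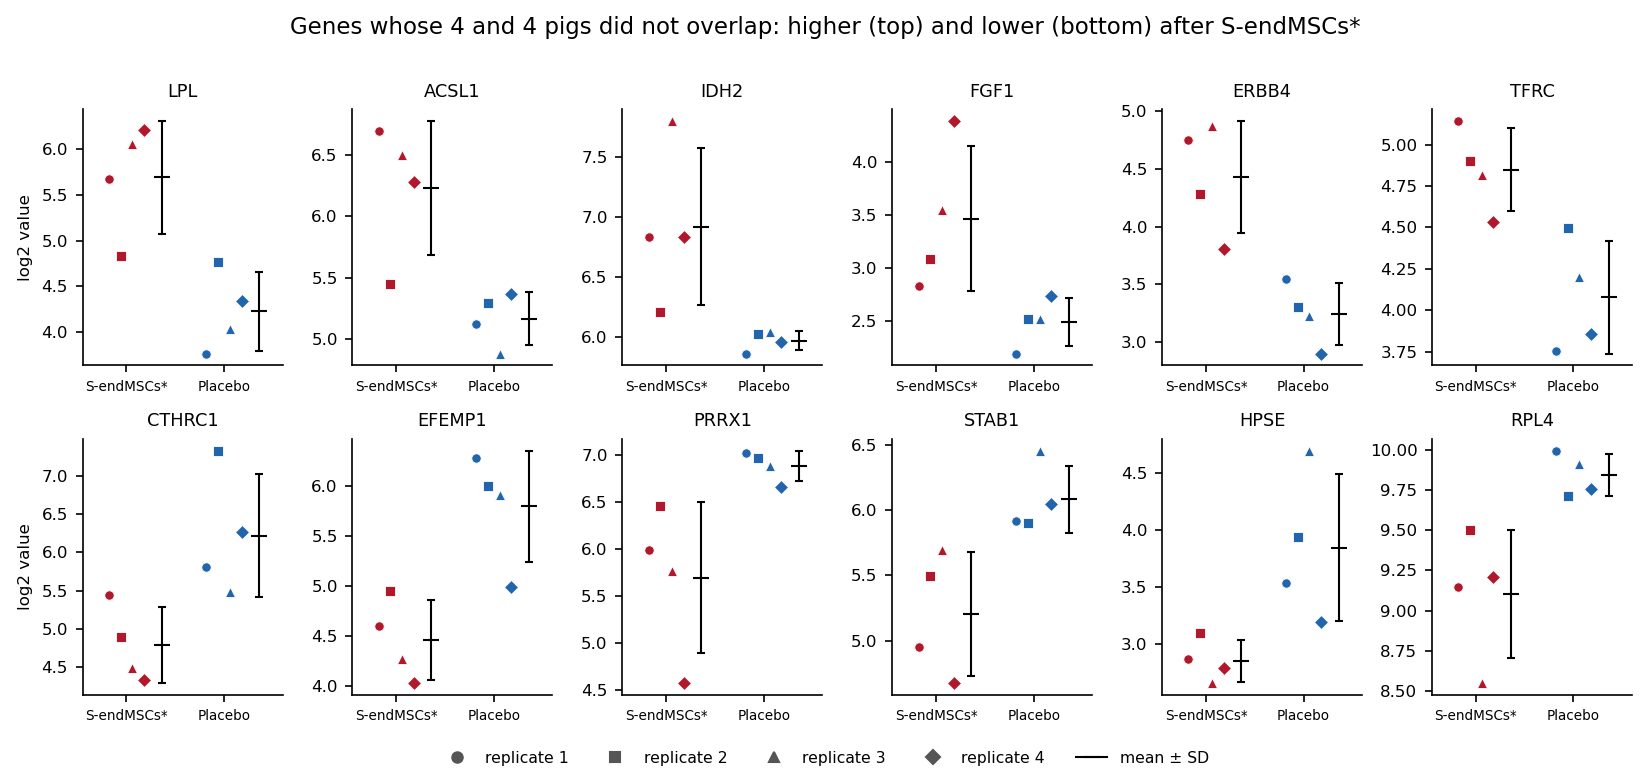
Log2 values of 12 genes in each pig, with AMI/S-endMSCs* left of AMI/Placebo in each panel; symbols mark the replicate and bars give the mean ± SD of the 4 pigs. In every panel the 4 pigs of the higher group lie above the 4 of the lower group, narrowly for LPL (4.83 against 4.77) and ACSL1 (5.45 against 5.37).

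The other separated genes that were higher formed no list of their own. COX6B, which the platform names as a subunit of cytochrome c oxidase, had a log2 fold change of 1.21 ± 0.38, with values between 5.57 and 7.02 in primed-secretome pigs and between 4.82 and 5.31 in placebo pigs. ERBB4, the receptor for neuregulin and HBEGF on cardiac muscle, had values of 4.75, 4.28, 4.87 and 3.81 in primed-secretome pigs and 3.55, 3.31, 3.23 and 2.90 in placebo pigs (log2 fold change 1.18 ± 0.32, 95% interval 0.49 to 1.88). Its other probe set, which was dimmer, was also separate at 0.92. FGF1, acidic fibroblast growth factor, had values of 2.83, 3.08, 3.55 and 4.39 in primed-secretome pigs and 2.19, 2.51, 2.52 and 2.73 in placebo pigs (0.97 ± 0.31, 95% interval 0.31 to 1.64). RBFOX1, a splicing factor of muscle and neurons, stood at 1.1 ± 0.36, and LUC7L, a protein linked to the U1 splicing particle, at 0.92 ± 0.24. PENK, the precursor of the enkephalins, stood at 0.93 ± 0.26 but was close to the dim level, at 2.35 to 3.26 in primed-secretome pigs and 1.71 to 2.03 in placebo pigs. CCDC181 (1.29 ± 0.32), FAM160A2 (1.26 ± 0.26) and MAP7D3 (1.0 ± 0.27), the last a microtubule-associated protein, completed the 12 largest. All 12 kept their call in each of the 12 fits that left out 1 array. They had been chosen for calls and separation in these same pigs, so this is a description.

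Among the separated genes that were lower, the largest changes were in single genes of fibroblasts and their matrix. Of the 9 measured fibroblast markers, 0 were called, at a median of -0.28. With 1.28% of all genes called lower, a count of 0 in so short a list says nothing about its members. Of the 9, 7 were below 0, with FAP at -0.002, and PDPN (0.0004) and THY1 (0.14) were not. CTHRC1, a secreted protein of activated scar fibroblasts, had log2 values of 5.44, 4.89, 4.49 and 4.33 in primed-secretome pigs, against 5.81, 7.33, 5.48 and 6.26 in placebo pigs. The groups met closely, at 5.44 and 5.48, and placebo replicate 2 was far above the rest. Its log2 fold change was -1.43 ± 0.47 (95% interval -2.44 to -0.42), which is a 2.70-fold higher level in placebo pigs. EFEMP1, the matrix protein fibulin-3, had values of 4.60, 4.95, 4.27 and 4.03 in primed-secretome pigs and 6.29, 6.0, 5.91 and 4.99 in placebo pigs (-1.34 ± 0.46, 95% interval -2.33 to -0.35). PRRX1, a transcription factor of mesenchymal cells, was tight in placebo pigs, at 7.02, 6.97, 6.88 and 6.66, and lower in primed-secretome pigs, at 5.99, 6.46, 5.76 and 4.57 (-1.19 ± 0.36, 95% interval -1.96 to -0.42). NREP, a small protein found in migrating myofibroblasts, ran between 6.43 and 7.74 in primed-secretome pigs and between 7.90 and 8.68 in placebo pigs (-1.16 ± 0.33, 95% interval -1.88 to -0.44).

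The other separated genes that were lower formed no list of their own. STAB1, the scavenger receptor stabilin-1 of tissue macrophages, had values of 4.95, 5.50, 5.69 and 4.67 in primed-secretome pigs and 5.92, 5.90, 6.46 and 6.05 in placebo pigs (-0.88 ± 0.32, 95% interval -1.58 to -0.18). HPSE, heparanase, which cuts heparan sulfate chains of the matrix, was at 2.66 to 3.10 in primed-secretome pigs and at 3.20 to 4.70 in placebo pigs (-0.99 ± 0.31). TMEM86A, a lysoplasmalogenase, had the smallest p of all genes, 0.000147, with 2.05 to 2.53 in primed-secretome pigs and 3.09 to 3.56 in placebo pigs (-1.02 ± 0.20), so its primed-secretome values were under the dim level. SERP1, a protein tied to the translocon of the endoplasmic reticulum, stood at -0.83 ± 0.33 and RPL4, a protein of the large ribosomal subunit, at -0.74 ± 0.26. SNX12 (-0.73 ± 0.21), a sorting nexin of endosomes, KIF24 (-0.81 ± 0.28), a kinesin, and FRMD5 (-0.78 ± 0.29) were the remaining 3. Of these 12 genes, 9 kept their call in every fit that left out 1 array. STAB1 lost it in 2 of those fits, SERP1 in 3 and RPL4 in 1. The lower genes too had been chosen on the same pigs, so these counts only describe them.

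The level of muscle markers was not even across the samples. The 9 measured of 14 cardiomyocyte markers (contractile proteins, phospholamban and related genes) had mean log2 values of 9.76, 6.61, 9.59 and 9.46 in primed-secretome pigs and 7.53, 8.45, 6.43 and 8.85 in placebo pigs. All 9 were higher in primed-secretome pigs on average, with a median log2 fold change of 1.05. None was called, where 1.95% of all genes were called higher. Primed-secretome replicate 2 was close to the lowest placebo pig, while the other 3 lay above all placebo pigs. The fit was repeated with this marker mean as a covariate, which asks how pigs of equal marker level differed, and 210 genes were then called (1.92%), 136 of them among the 353 called without it. All 12 of the higher separated genes named above and 11 of the 12 lower ones were called in both fits. Both fits use the pigs on which these genes were chosen, so these counts are a description. SERP1 was the exception, at -0.72 with a 95% interval of -1.50 to 0.06 in the fit with the covariate. The lists of muscle, fuel and macrophage genes below are given with this fit beside them, and the part that the muscle marker level had in these results was not tested further.

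**Figure D2:**
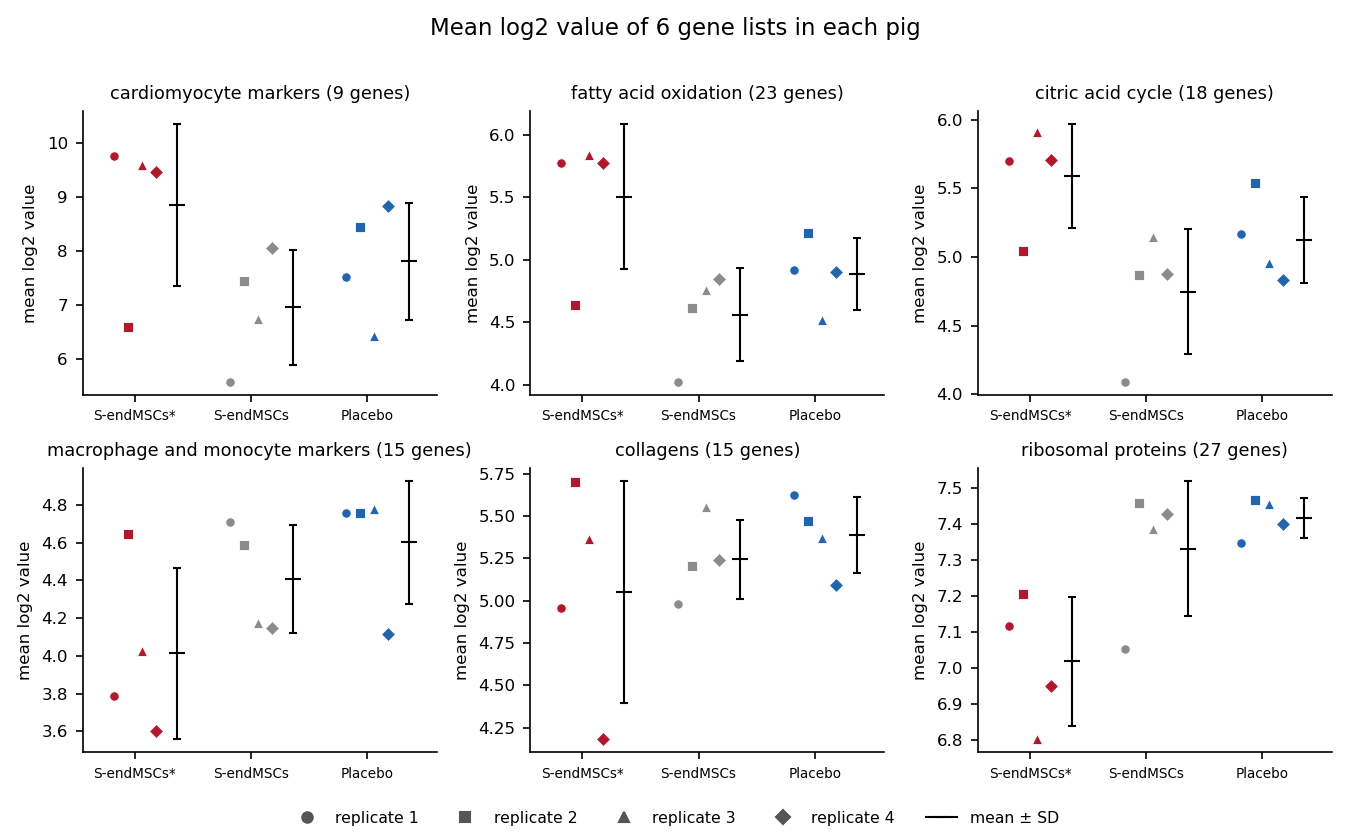
Mean log2 value over the measured genes of 6 lists in each pig, with AMI/S-endMSCs*, AMI/S-endMSCs and AMI/Placebo from left to right; symbols mark the replicate and bars give the mean ± SD of the 4 pigs. AMI/S-endMSCs* replicate 2 is the lowest of its group for cardiomyocyte markers (6.61) and fatty acid oxidation and the highest for macrophage markers (4.64), and only for ribosomal proteins do the 4 AMI/S-endMSCs* pigs (6.80 to 7.21) lie below all AMI/Placebo pigs (7.35 to 7.47).

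Fatty acid oxidation was the list with the most called genes. Of 23 measured genes, 7 were called higher, against 1.95% of all genes, and 0 were called lower. The median log2 fold change of the list was 0.47, against 0.01 over all genes, and 21 of the 23 were above 0. Beside LPL and ACSL1 these were FABP3, ETFDH, HADHA, ACADM and ACOT13. FABP3, the fatty acid binding protein of heart muscle, had the largest change of the list, with log2 values of 7.50, 4.55, 7.88 and 8.25 in primed-secretome pigs and 4.95, 5.63, 3.63 and 6.63 in placebo pigs (1.84 ± 0.82, 95% interval 0.08 to 3.59). Its groups overlapped, because primed-secretome replicate 2 was below 3 of the placebo pigs. Its second, dimmer probe set gave 0.99 and was not called.

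ETFDH passes electrons from β-oxidation to the respiratory chain. It had values of 7.16, 5.14, 6.97 and 6.81 in primed-secretome pigs and 5.24, 5.81, 4.58 and 5.13 in placebo pigs (1.33 ± 0.45, 95% interval 0.35 to 2.31). HADHA, the α subunit of the trifunctional protein of β-oxidation, had 6.18, 4.85, 6.61 and 6.18 in primed-secretome pigs and 4.87, 5.0, 3.93 and 5.20 in placebo pigs (1.20 ± 0.43, 95% interval 0.28 to 2.12). In both, 3 primed-secretome pigs lay above all placebo pigs and replicate 2 lay among them. ACADM, the medium-chain acyl-CoA dehydrogenase, stood at 0.98 ± 0.44 and ACOT13, a mitochondrial acyl-CoA thioesterase, at 0.93 ± 0.39. ETFA, a subunit of the electron transfer flavoprotein, was not called at 0.47 ± 0.36.

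The calls of this list leaned on single pigs to different degrees. LPL, ACSL1 and ETFDH kept their call in every fit that left out 1 array and HADHA in all but 1, while FABP3, ACADM and ACOT13 each lost it in 6 of 12. Without primed-secretome replicate 2 the list had 10 members called higher, without each of primed-secretome replicates 1, 3 and 4 it had 4, and without placebo replicate 3 it had 3. With the cardiomyocyte marker mean as a covariate its median was 0.24, and 4 members were called higher, against 1.11% of all genes in that fit: LPL at 1.13, ETFDH at 0.81, ACSL1 at 0.78 and HADHA at 0.66. FABP3, at 0.76, was not called there (95% interval -0.14 to 1.65).

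The citric acid cycle and pyruvate oxidation list had 4 of 18 measured genes called higher (1.95% of all genes were) and 0 lower, with a median of 0.46 and 17 of 18 above 0. Besides IDH2 they were IDH3B, a subunit of the NAD-dependent isocitrate dehydrogenase, GOT2, the mitochondrial aspartate aminotransferase, and MDH1, the cytosolic malate dehydrogenase. IDH3B had values of 6.24, 5.66, 6.59 and 6.82 in primed-secretome pigs and 5.55, 5.81, 5.69 and 5.20 in placebo pigs (0.77 ± 0.27, 95% interval 0.18 to 1.35). GOT2 stood at 0.89 ± 0.40 and MDH1, its partner in the malate-aspartate shuttle, at 0.87 ± 0.37. CS, citrate synthase, was not called at 0.50 ± 0.41. IDH2 and IDH3B kept their call in every fit that left out 1 array and with the covariate, at 0.72 and 0.61. GOT2 and MDH1 lost it in 7 and 6 of those fits and with the covariate, where the median of the list was 0.21. The list held 7 called members without primed-secretome replicate 2 and 2 without each of primed-secretome replicates 1, 3 and 4 and placebo replicates 1, 3 and 4.

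Respiratory chain and ATP synthase genes leaned the same way by less. Of 21 measured genes, 20 were above 0 with a median of 0.37, and 1 was called higher, against 1.95% of all genes. With the covariate the median was 0.24. COX5B, a nuclear-encoded subunit of cytochrome c oxidase, had values of 7.51, 6.51, 7.58 and 7.36 in primed-secretome pigs and 6.14, 7.00, 6.15 and 5.91 in placebo pigs (0.94 ± 0.30, 95% interval 0.29 to 1.58). It kept the call in every fit that left out 1 array and with the covariate, at 0.68. NDUFA13, a subunit of complex I that was not on the list and was picked out after its values were seen, stood at 1.27 ± 0.43 (95% interval 0.34 to 2.21), with 6.51, 5.16, 7.28 and 6.07 in primed-secretome pigs and 5.29, 5.76, 4.65 and 4.22 in placebo pigs. Of the antioxidant enzymes, 2 of 17 were called (3.23% of all genes were), both of mitochondria and both higher: SOD2, the manganese superoxide dismutase, at 0.99 ± 0.35 and PRDX3, peroxiredoxin 3, at 0.65 ± 0.29. SOD2 lost its call in 1 fit that left out an array and PRDX3 in 8, and both lost it with the covariate, at 0.72 and 0.63. NDUFA13 was called with it, at 0.94.

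The genes of sugar metabolism were mixed. The glycolysis and glycogen list had a median of 0.15, with 4 of 21 genes called higher, against 1.95% of all genes, and 0 lower. Of those 4, 3 act on glycogen, and the other glycogen genes of the list were not called. PYGM, the muscle glycogen phosphorylase that releases glucose units, had values of 5.78, 3.93, 5.99 and 5.08 in primed-secretome pigs and 3.58, 4.76, 2.83 and 4.80 in placebo pigs (1.20 ± 0.49, 95% interval 0.14 to 2.26). PHKG1, the catalytic subunit of the kinase that switches PYGM on, stood at 0.86 ± 0.35, with primed-secretome replicate 1 at 3.99 and the other 3 between 2.85 and 3.04. A dimmer probe set of PHKG1 gave 0.39 and was not called. GYS1, the muscle glycogen synthase that builds glycogen, stood at 0.68 ± 0.27. The fourth, PGAM2, the muscle form of phosphoglycerate mutase, stood at 1.32 ± 0.50, with 5.39, 3.32, 6.47 and 5.87 in primed-secretome pigs and 3.92, 4.30, 3.52 and 4.05 in placebo pigs. These calls were lost in 2 to 4 of the 12 fits that left out 1 array, and all 4 were lost with the covariate, at 0.49 to 0.88.

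In the buffering of ATP, 3 of 6 measured genes were called, 2 higher and 1 lower, against 1.95% and 1.28% of all genes. AK1, muscle adenylate kinase, stood at 1.01 ± 0.41, with its call lost in 3 of the 12 fits that left out 1 array, and SLC6A8, the creatine transporter, at 0.48 ± 0.22. SLC6A8 had small spreads, with 4.27, 4.79, 4.77 and 4.74 in primed-secretome pigs and 4.03, 4.25, 4.21 and 4.17 in placebo pigs, and its call was lost in 9 of the 12 fits that left out 1 array. GATM, which makes the precursor of creatine, was lower and separate, with 2.28, 2.61, 2.17 and 2.53 in primed-secretome pigs and 3.29, 2.98, 3.29 and 2.73 in placebo pigs (-0.67 ± 0.23, 95% interval -1.17 to -0.18). It held in every such fit and with the covariate (-0.58), while AK1 (0.58) and SLC6A8 (0.52) were not called with the covariate. CKMT2, the mitochondrial creatine kinase of muscle, had a larger difference of 1.55 ± 0.75 that was not called (95% interval -0.07 to 3.16), with primed-secretome replicate 2 at 4.67 and the other 3 between 7.71 and 8.53.

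The muscle structure lists had larger median changes than the fuel lists but fewer firm calls. The sarcomere and Z-disc list of 22 genes had a median log2 fold change of 1.08, with 21 of 22 above 0. Of the 22, 4 were called higher, against 1.95% of all genes, and 0 lower. The called members were TCAP (1.5 ± 0.70), the titin cap protein, NEBL (1.41 ± 0.60), the nebulin-like protein of the heart, XIRP1 (1.16 ± 0.52), an actin-binding protein of the intercalated disc, and LDB3 (1.12 ± 0.50), a Z-disc protein. NEBL had log2 values of 10.43, 8.05, 10.93 and 10.69 in primed-secretome pigs and 8.17, 9.11, 7.56 and 9.62 in placebo pigs, so primed-secretome replicate 2 again lay under 3 placebo pigs. Core contractile proteins were not called: MYH7, the slow myosin heavy chain, at 1.05 ± 0.67, ACTC1, cardiac actin, at 0.97 ± 0.75, and MYL2, the ventricular myosin light chain, at 0.73 ± 0.68. Without primed-secretome replicate 2 the list had 19 members called higher, without placebo replicate 4 it had 7, and without each of primed-secretome replicates 1 and 3 and placebo replicates 1 and 3 it had 0. It had 1 or 2 without primed-secretome replicate 4 or basal-secretome replicates 1, 2 and 3, and the 4 called members lost their call in 5 to 9 of the 12 fits. With the covariate its median was 0.13 and 0 members were called (of all genes, 1.11% were called higher). Of its 22 genes, 7 are themselves part of that marker mean, so for them, ACTC1 and MYL2 among them, the covariate takes out their own difference by construction.

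NEB stood apart from this pattern and had the largest called change of all genes. It encodes nebulin, a giant thin filament protein best known from skeletal muscle, and it was on none of the lists, so it was picked out after its values were seen. Its log2 values were 6.72, 4.77, 8.13 and 7.63 in primed-secretome pigs, against 2.94, 3.87, 3.50 and 5.26 in placebo pigs. The groups overlapped by a pair of pigs, primed-secretome replicate 2 being below placebo replicate 4. The log2 fold change was 2.92 ± 0.62 (95% interval 1.59 to 4.25), a 7.57-fold higher level. The other probe sets of NEB gave 2.55 and 2.56, and both were called. Its call held in every fit that left out 1 array, and with the cardiomyocyte marker mean as a covariate it was 2.23 (95% interval 1.24 to 3.22). ANK1, a spectrin-binding ankyrin with a small muscle form at the sarcoplasmic reticulum, stood at 2.13 ± 0.95, and UNC45B, the muscle myosin chaperone, at 1.82 ± 0.84. Both had primed-secretome replicate 2 far below the other 3 and lost their call in 7 and 9 of the 12 fits that left out 1 array. With the covariate ANK1 was called at 0.80, and UNC45B was not, at 0.82. Of the 4 probe sets of ANK1, the bright one used here was the only one called. A dimmer probe set of UNC45B gave 0.27 and was not called.

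**Figure D3:**
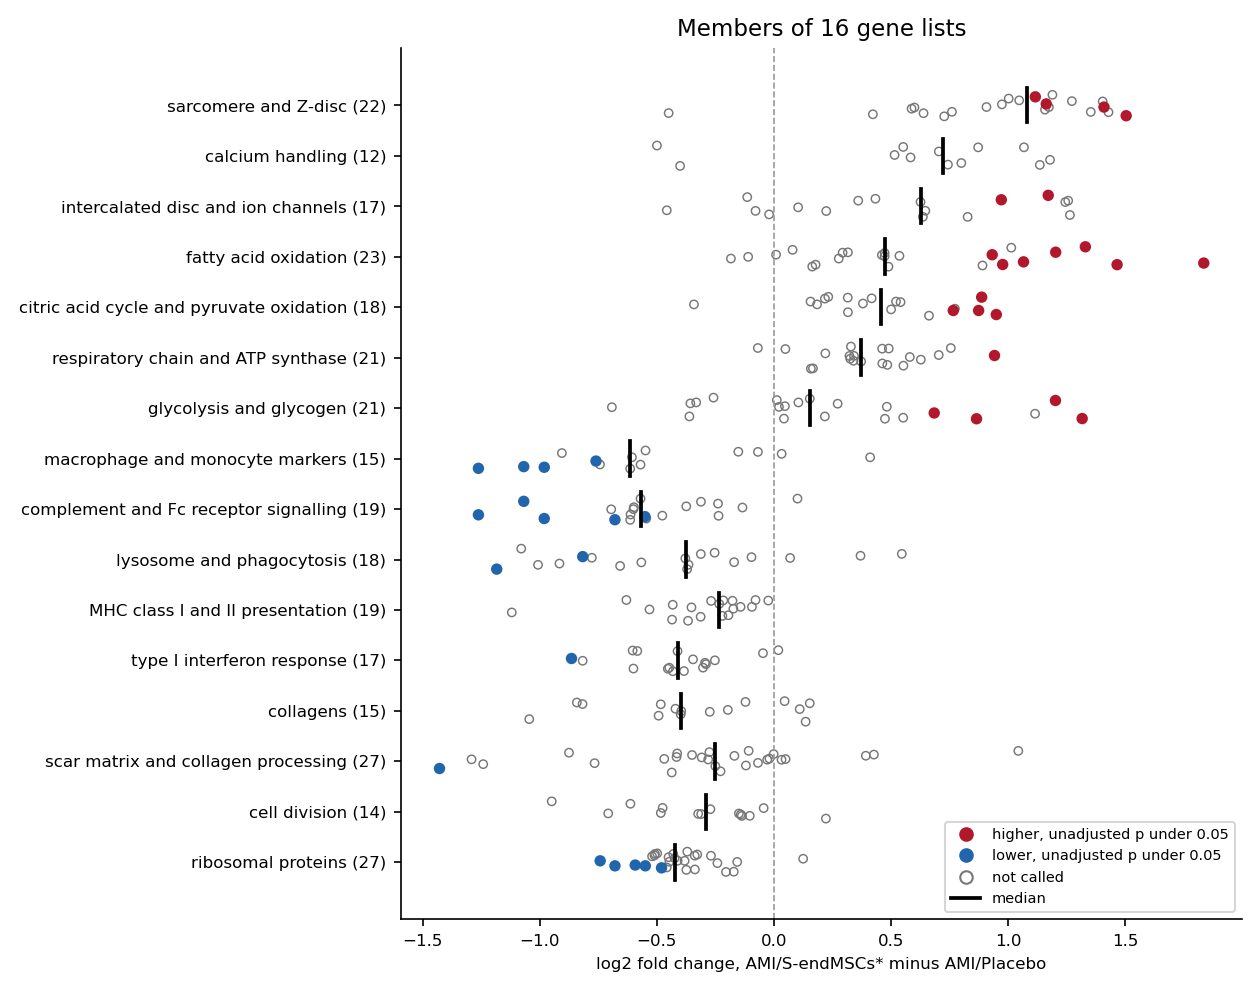
Log2 fold change, AMI/S-endMSCs* minus AMI/Placebo, of each measured gene of 16 lists, with the number of genes in brackets; filled points had an unadjusted p under 0.05, and black bars are medians. The sarcomere list has the largest median (1.08) with 4 called genes, and fatty acid oxidation has 7 called genes at a median of 0.47. Of all genes, 1.95% were called higher. Nearly all points of the ribosomal and MHC lists lie left of 0.

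Genes that couple and excite muscle had medians above 0. None of the 12 calcium handling genes was called at a median of 0.72, and CASQ2, the calcium store protein of the sarcoplasmic reticulum, stood at 1.14 ± 0.62. With the covariate, which 2 of the 12 are part of, their median was 0.23. Among 17 genes of intercalated discs and ion channels the median was 0.63 (0.27 with the covariate) and 2 were called higher, against 1.95% of all genes. CDH2, N-cadherin, which joins muscle cells end to end, had values of 6.32, 4.39, 6.39 and 6.07 in primed-secretome pigs and 4.51, 5.34, 4.08 and 4.56 in placebo pigs (1.17 ± 0.41, 95% interval 0.30 to 2.05). It kept its call in every fit that left out 1 array and with the covariate, at 0.73. KCNJ2, the inward rectifier potassium channel that sets the resting potential, stood at 0.97 ± 0.38 and lost its call in 3 of those fits and with the covariate (0.77). GJA1, connexin 43 of the gap junction, was not called at 0.63 ± 0.51. Of 15 cardiac transcription factors, PROX1 (0.92 ± 0.39) and GATA6 (0.79 ± 0.33) were called higher, against 1.95% of all genes. The median of that list was 0.13, or 0.06 with the covariate. PROX1 lost its call in 6 and GATA6 in 5 of the fits that left out 1 array, and both lost it with the covariate, at 0.55 and 0.44.

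Cardiac stress and fetal genes had a median of 0.51 over 15 genes with 2 called higher, against 1.95% of all genes. These were XIRP1 and HBEGF, a growth factor that binds ERBB4. HBEGF stood at 0.66 ± 0.30 and lost its call in 6 of the fits that left out 1 array. With the covariate the median of the list was 0.03 and 0 of the 15 were called, HBEGF being at 0.54 and XIRP1 at 0.56. The natriuretic peptide NPPA, made by strained muscle, had the widest spread of this list in primed-secretome pigs. Its log2 values were 9.46, 3.01, 6.08 and 3.67 in primed-secretome pigs and 5.60, 5.53, 2.50 and 5.49 in placebo pigs, a difference of 0.78 ± 1.11. CSRP3, the muscle LIM protein, was as scattered, at 12.09, 6.70, 9.32 and 11.17 in primed-secretome pigs and 7.95, 8.87, 6.74 and 10.09 in placebo pigs (1.40 ± 1.18). For neither gene can the 8 pigs tell a several-fold difference from none. ACTA1, the skeletal α-actin that stressed heart muscle expresses, was not called at 1.02 ± 0.72.

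Most macrophage markers lay below 0. Of 15 measured macrophage and monocyte markers, 4 were called lower, against 1.28% of all genes, and 0 higher, with a median log2 fold change of -0.61 and 13 of 15 below 0. TYROBP, the adaptor of activating receptors of myeloid cells, had log2 values of 4.11, 5.63, 5.07 and 4.51 in primed-secretome pigs and 6.12, 5.84, 6.09 and 5.54 in placebo pigs (-1.07 ± 0.30, 95% interval -1.72 to -0.42). Only primed-secretome replicate 2 reached the placebo range. FCER1G, the common γ chain of Fc receptors, had 6.34, 8.78, 7.06 and 5.74 in primed-secretome pigs and 8.61, 8.53, 8.86 and 6.97 in placebo pigs (-1.26 ± 0.57, 95% interval -2.48 to -0.04). Here primed-secretome replicate 2 was high among its group and placebo replicate 4 low among its own. C1QB, a chain of the complement protein C1q that macrophages secrete, had 5.41, 5.02, 6.35 and 4.28 in primed-secretome pigs and 6.78, 6.30, 6.31 and 5.61 in placebo pigs (-0.98 ± 0.39, 95% interval -1.83 to -0.14), and its second probe set gave -1.1. AIF1, the macrophage protein IBA1, stood at -0.76 ± 0.35.

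TYROBP kept its call in every fit that left out 1 array and with the cardiomyocyte covariate, at -0.80. C1QB was called with the covariate at -0.95 and lost its call in 3 of the fits that left out 1 array, FCER1G lost it in 8 and AIF1 in 9, and both lost it with the covariate, where the median of the list was -0.42. The list had 6 members called lower without placebo replicate 4, 2 without each of primed-secretome replicate 1, placebo replicates 1 and 3 and basal-secretome replicates 2 and 3, and 1 without primed-secretome replicate 4. The marker mean of the list was 3.79, 4.64, 4.02 and 3.60 in primed-secretome pigs and 4.76, 4.76, 4.78 and 4.12 in placebo pigs. The pig with the lowest cardiomyocyte mean of each group had the highest macrophage mean of that group. These were primed-secretome replicate 2 (6.61 and 4.64) and placebo replicate 3 (6.43 and 4.78). Placebo replicate 4 had the highest cardiomyocyte and the lowest macrophage mean of its group (8.85 and 4.12), while placebo replicate 2 had 8.45 and 4.76. The link between the marker means was not tested.

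The list of complement and Fc receptor signalling, which shares FCER1G, TYROBP and C1QB with the markers, had 5 of 19 genes called lower (1.28% of all genes were) and 0 higher, with a median of -0.57 and 18 of 19 below 0. The remaining members were PLCG2 (-0.68 ± 0.31), a phospholipase, and LYN (-0.55 ± 0.22), a Src family kinase, both of which relay the signal of Fc receptors. LYN was tight in primed-secretome pigs, at 2.68, 2.93, 2.78 and 2.73, against 3.46, 3.54, 3.44 and 2.88 in placebo pigs. PLCG2 lost its call in 7 and LYN in 4 of the fits that left out 1 array. The list had 7 called members without placebo replicate 4, 1 without placebo replicate 1, 2 without each of primed-secretome replicates 1 and 4 and placebo replicate 3, and 3 without placebo replicate 2 or basal-secretome replicate 2. With the covariate its median was -0.38 with 2 called lower, against 0.816% of all genes.

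Most lysosomal genes lay below 0, 15 of the 18 measured. CAPG, an actin-capping protein of macrophages, stood at -1.18 ± 0.50 and APOE, the lipid carrier that macrophages secrete, at -0.82 ± 0.31. These were the 2 called of 18 lysosome and phagocytosis genes (median -0.38), where 1.28% of all genes were called lower. APOE had values of 3.54, 4.62, 4.15 and 3.45 in primed-secretome pigs and 5.24, 4.85, 4.62 and 4.32 in placebo pigs. CAPG lost its call in 6 and APOE in 3 of the fits that left out 1 array, and both lost it with the covariate, where the median of the list was -0.12 and 0 were called. GUSB and MAN2B1, lysosomal enzymes that cut sugars, and NR1H3, the liver X receptor that controls cholesterol export in macrophages, were picked out after their values were seen. GUSB had 4.17, 5.89, 4.61 and 3.80 in primed-secretome pigs and 5.88, 5.82, 6.08 and 5.27 in placebo pigs (-1.14 ± 0.38, 95% interval -1.96 to -0.33), and it kept its call in every fit that left out 1 array and with the covariate (-0.76). MAN2B1 stood at -0.98 ± 0.42 and NR1H3 at -0.90 ± 0.35, and they lost their call in 5 and 4 of those fits and with the covariate, at -0.73 and -0.64. A dimmer probe set of NR1H3 gave -0.44 and was not called. The cathepsins CTSK (-1.08 ± 0.77) and CTSH (-0.92 ± 0.54) and the lysozyme gene LYZ (-0.98 ± 0.83) were as far below 0 but not called, and CTSK ran between 4.99 and 8.74 in primed-secretome pigs and between 5.60 and 9.28 in placebo pigs.

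Iron genes moved apart. TFRC, the transferrin receptor through which cells import iron, was higher and separate, at 5.14, 4.90, 4.82 and 4.53 in primed-secretome pigs and 3.75, 4.50, 4.20 and 3.86 in placebo pigs (0.77 ± 0.26, 95% interval 0.22 to 1.32). FTL, the light chain of the iron store ferritin, was lower, at 9.29, 10.86, 9.10 and 8.74 in primed-secretome pigs and 10.61, 10.42, 10.90 and 9.99 in placebo pigs (-0.98 ± 0.38, 95% interval -1.80 to -0.16). TFRC kept its call in every fit that left out 1 array and with the covariate (0.71), while FTL lost it in 4 of them and with the covariate (-0.53). The other 8 of the 10 measured iron genes were not called, and 3.23% of all genes were called.

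Other immune lists held 0 or 1 called genes each. With 3.23% of all genes called, such counts say nothing about the members of these lists. None of the 19 genes of MHC presentation was called, although all 19 were below 0 (median -0.23). SLA-DRA, an MHC class II chain of the pig, was at 6.97, 7.22, 7.80 and 6.56 in primed-secretome pigs and 7.40, 7.58, 7.32 and 7.12 in placebo pigs. Of 17 type I interferon response genes, 16 were below 0 and 1 was called, MX2 at -0.87 ± 0.40. Its placebo pigs fell into a high pair, 6.03 and 5.65, and a low pair, 4.46 and 4.01, and its call was lost in 9 of the 12 fits that left out 1 array. CXCL9, a chemokine that interferon gamma induces, was called higher at 0.71 ± 0.30, and it was the only called gene of the 27 chemokines and of the 15 interferon gamma response genes. CXCR3, its receptor on activated T cells, was called lower at -0.72 ± 0.32, with 3.19, 3.25, 3.17 and 3.54 in primed-secretome pigs and 3.42, 3.40, 4.32 and 4.88 in placebo pigs. CASP1, the caspase that matures interleukin 1, was lower at -0.85 ± 0.38. The calls of CXCL9, CXCR3 and CASP1 were lost in 4, 6 and 8 of the fits that left out 1 array. None of the 28 interleukins and receptors, the 17 T and NK cell markers, the 7 neutrophil markers and the 2 measured of 10 B and plasma cell markers was called.

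S100A8, a calgranulin of neutrophils and monocytes, was the neutrophil marker with the widest spread. It stood at 2.46, 5.92, 2.17 and 2.42 in primed-secretome pigs and at 4.94, 4.84, 6.35 and 3.30 in placebo pigs (-1.62 ± 0.82, 95% interval -3.38 to 0.14). SPP1, osteopontin, which macrophages of infarcts secrete, was wider still, at 4.73, 10.55, 5.40 and 4.20 in primed-secretome pigs and 9.53, 9.67, 9.77 and 4.75 in placebo pigs (-2.21 ± 1.31). Each group thus held a pig like the other group. Primed-secretome replicate 2 had the low cardiomyocyte and high macrophage level of its group, and placebo replicate 4 had the low macrophage level and the highest cardiomyocyte level of its own.

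Most scar genes lay below 0. The scar matrix and collagen processing list of 27 genes had a median of -0.25, with 22 below 0. CTHRC1 was its only called member, where 1.28% of all genes were called lower. The median of the list was 0.01 without primed-secretome replicate 4. It had 4 called lower without primed-secretome replicate 2 or placebo replicate 4, and 2 without primed-secretome replicate 3. None of 15 collagens was called at a median of -0.40. COL1A1, the main chain of scar collagen, stood at 8.94, 10.46, 10.56 and 6.36 in primed-secretome pigs and at 10.45, 9.35, 10.49 and 10.23 in placebo pigs (-1.05 ± 0.71, 95% interval -2.58 to 0.48). Primed-secretome replicate 4 was the low pig here, and it was also the lowest of its group for COL1A2 (5.85), COL3A1 (5.67) and FN1, fibronectin (6.23). Its array had a narrow spread of log2 values, with an interquartile range of 1.81. That of placebo replicate 4 was 1.80, and the other arrays of the comparison had 2.09 to 2.51. The part of this array difference in the values was not tested. The group differences were -0.82 ± 0.59 for COL1A2, -0.40 ± 0.64 for COL3A1 and -1.29 ± 0.86 for FN1. POSTN, periostin of activated fibroblasts, was at 10.08, 10.21, 9.65 and 8.31 in primed-secretome pigs and 10.17, 9.75, 10.01 and 8.60 in placebo pigs, a difference of -0.07 with a 95% interval between -1.07 and 0.94. With the cardiomyocyte covariate, CTHRC1 was at -1.72, EFEMP1 at -1.19 and PRRX1 at -1.09, all called.

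A pair of genes of myofibroblasts and smooth muscle was lower, without the rest of their list. ACTA2, smooth muscle α-actin, which marks myofibroblasts, had log2 values of 5.54, 7.01, 5.51 and 5.90 in primed-secretome pigs and 7.87, 7.22, 7.94 and 5.71 in placebo pigs (-1.19 ± 0.48, 95% interval -2.23 to -0.16). TAGLN, transgelin, had 5.38, 6.42, 5.35 and 4.28 in primed-secretome pigs and 6.75, 5.98, 6.85 and 6.02 in placebo pigs (-1.04 ± 0.38, 95% interval -1.86 to -0.23). They were the 2 called of 10 smooth muscle and pericyte markers, where 1.28% of all genes were called lower. The median of that list was 0.06 with 7 of 10 above 0. CDH11, the cadherin of fibroblasts, picked out after its values were seen, stood at -1.0 ± 0.45, ADAM12, a metalloprotease of activated fibroblasts, at -1.07 ± 0.47, and ROR2, a receptor for WNT5A, at -0.82 ± 0.30. ROR2 kept its call in every fit that left out 1 array, while ACTA2 lost it in 5, TAGLN in 2, ADAM12 in 6 and CDH11 in 8. All 5 were past the threshold without the cardiomyocyte covariate and not with it, where they lay between -0.85 and -0.53. MMP15, a membrane-bound matrix metalloprotease, was higher and separate, at 3.44, 3.01, 4.31 and 3.44 in primed-secretome pigs and 2.35, 2.69, 2.56 and 2.97 in placebo pigs (0.91 ± 0.31, 95% interval 0.24 to 1.58).

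Ribosomal protein genes shifted evenly and by little. Of 27 measured genes, 26 were below 0 with a median of -0.42, and 5 were called lower, against 1.28% of all genes, and 0 higher. The groups did not overlap for 6 of the 27, all lower, against 0.880% of all genes. RPL4 had log2 values of 9.15, 9.50, 8.55 and 9.21 in primed-secretome pigs and 10.00, 9.71, 9.91 and 9.76 in placebo pigs. RPL9 had 9.59, 9.32, 8.91 and 9.30 in primed-secretome pigs and 9.63, 10.19, 9.70 and 9.97 in placebo pigs (-0.59 ± 0.24, 95% interval -1.11 to -0.07). RPS12 (-0.48 ± 0.22), RPS2 (-0.55 ± 0.25) and RPL7 (-0.68 ± 0.31) were the others. Primed-secretome replicate 3 was the lowest pig for all 5, and without it 0 were called. Without placebo replicate 3 there were 2, and without primed-secretome replicate 4, basal-secretome replicate 4 or placebo replicate 1 there were 3. The list mean over the 27 genes was 7.12, 7.21, 6.80 and 6.95 in primed-secretome pigs and 7.35, 7.47, 7.46 and 7.40 in placebo pigs, so the groups did not overlap.

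The cardiomyocyte covariate left the ribosomal median at -0.42, with 3 called lower. Ribosomal proteins have many near-identical gene copies in mammals, so a probe set of such a gene may read more than 1 of them. Partners in protein synthesis, picked out after their values were seen, were also lower. SSR2, a subunit of the translocon-associated complex, had 7.61, 7.88, 7.82 and 7.12 in primed-secretome pigs and 8.36, 8.27, 8.14 and 8.47 in placebo pigs (-0.71 ± 0.27, 95% interval -1.28 to -0.13), separate in all 8 pigs. PABPC1, the main poly(A)-binding protein, had 8.66, 9.50, 8.14 and 7.82 in primed-secretome pigs and 9.78, 9.16, 9.82 and 8.88 in placebo pigs (-0.88 ± 0.37). SSR2 was also called with the covariate, at -0.79, and PABPC1 was not.

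Growth factor receptors of muscle and vessels held several calls. FGFR1, a receptor of FGF1, had values of 5.69, 4.99, 6.06 and 5.35 in primed-secretome pigs and 4.83, 4.81, 4.34 and 5.14 in placebo pigs (0.74 ± 0.26, 95% interval 0.19 to 1.29), so ligand and receptor were both higher. Both kept their call in every fit that left out 1 array and with the covariate, where FGF1 was at 0.82 and FGFR1 at 0.52. They were the 2 called of 19 angiogenesis factors and receptors, where 1.95% of all genes were called higher. INSR, the insulin receptor, was the only called gene of the 10 of the insulin-like growth factor system, at 6.35, 5.13, 6.31 and 6.0 in primed-secretome pigs and 4.76, 4.76, 4.75 and 5.99 in placebo pigs (0.88 ± 0.37, 95% interval 0.08 to 1.68). Placebo replicate 4 alone reached the primed-secretome range, and the call was lost in 6 of the fits that left out 1 array. PDE4D, a phosphodiesterase that breaks down cyclic AMP in heart muscle, stood at 0.81 ± 0.35, BAG3, a chaperone partner at the Z-disc, at 0.65 ± 0.25, and EGR2, an immediate early transcription factor, at 0.94 ± 0.40. Their calls were lost in 5, 3 and 4 of those fits. None of 32 genes of TGF-beta and BMP signalling and none of 14 genes of cell division was called at the probe set that represents it. Over all genes, 3.23% were called.

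**Figure D4:**
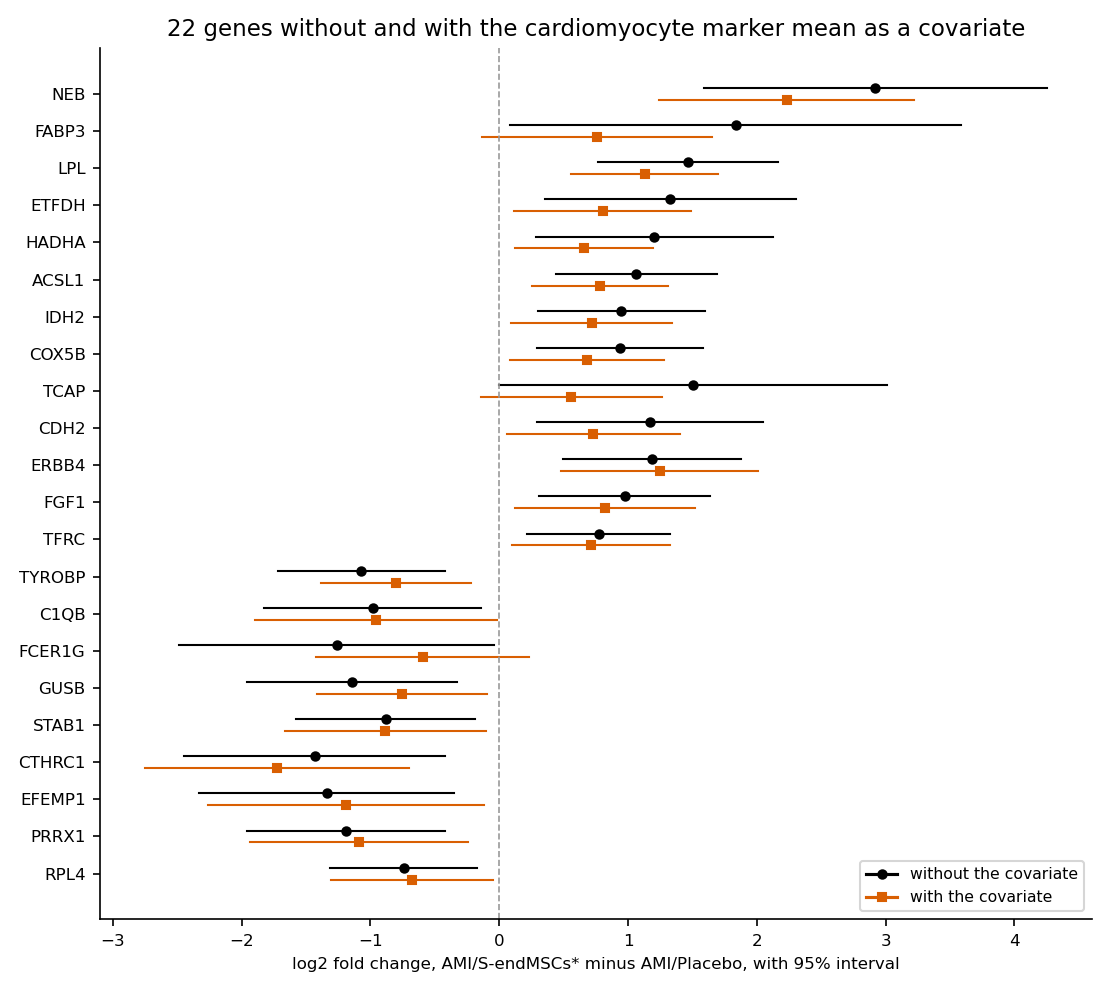
Log2 fold change, AMI/S-endMSCs* minus AMI/Placebo, with its 95% interval for 22 genes, fitted without (circles) and with (squares) the level of cardiomyocyte markers in each pig as covariate. NEB (2.92 and 2.23), LPL (1.47 and 1.13) and ERBB4 (1.18 and 1.25) stay clear of 0 in both, FABP3, TCAP and FCER1G reach 0 with the covariate, and CTHRC1 lies further from 0 with it (-1.43 and -1.72).

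A list of 14 measured genes was taken from the study's text, most of them discussed there for their values in these same samples, so their counts here are not independent evidence. CD47 stands in it as the receptor of thrombospondin 1 and RPS3 as the gene used to scale the qPCR. Of the 14, 4 were called, 1 higher and 3 lower, where 3.23% of all genes were called. APOE, CXCR3 and TFRC are described above, and BCL6, a transcriptional repressor of immune cells, was lower at -0.61 ± 0.28 (95% interval -1.21 to -0.00), with 3.03, 3.95, 4.06 and 2.90 in primed-secretome pigs and 4.28, 4.17, 4.23 and 3.69 in placebo pigs. The call of BCL6 was lost in 9 of the 12 fits that left out 1 array. Values not called were -0.88 ± 0.49 for THBS1, thrombospondin 1, -0.61 ± 0.31 for the cytokine LIF, -0.53 ± 0.29 for the small GTPase CDC42 and -0.37 ± 0.32 for the transcription factor STAT3. The ribosomal protein RPS3 stood at -0.27 ± 0.22 and BMP6, a ligand that controls iron balance, at -0.04 ± 0.26. Another probe set of BMP6, with a 12-array mean of 2.11 under the dim level, was called higher at 0.68. There every primed-secretome pig stood above every placebo pig. The third and dimmest gave 0.13 and was not called. The chemokine receptors CXCR6 and ACKR2 stood at 0.44 ± 0.28 and 0.28 ± 0.25, IGF1R, the receptor of insulin-like growth factors, at 0.34 ± 0.29, and CD47, a signal against phagocytosis, at 0.32 ± 0.42.

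Set against the basal secretome, the primed secretome had many muscle and fuel genes called higher. In the same fit 795 genes were called between primed-secretome and basal-secretome pigs (7.29%), 525 higher (4.81%) and 270 lower (2.47%) after the primed secretome. Of the sarcomere and Z-disc list, 16 of 22 genes were called higher, with a median of 1.68, and of fatty acid oxidation 14 of 23 with a median of 1.04. Citric acid cycle genes had 12 of 18 called higher and respiratory chain genes 10 of 21. Over the same lists, basal-secretome minus placebo medians were -0.53, -0.27, -0.35 and -0.36, beside primed-secretome minus placebo medians of 1.08, 0.47, 0.46 and 0.37. These 2 sets of differences share the placebo pigs. The cardiomyocyte marker median was 1.70 between primed-secretome and basal-secretome pigs, with 7 of 9 called higher, so the muscle marker level also differed there. Basal-secretome replicate 1 was the lowest of its group for all these lists, with a cardiomyocyte marker mean of 5.58 against 6.76 to 8.07. Its array had the lowest mean correlation with the other arrays, 0.82, and the smallest interquartile range, 1.66. The part of this array in these counts was not tested.

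Single genes show where the groups parted. LPL was 1.49 ± 0.33 (SE) higher after the primed than after the basal secretome, and its basal-secretome minus placebo difference was -0.03. ETFDH was 1.93 ± 0.45 higher, COX5B 1.1 ± 0.30 higher, NEB 2.69 ± 0.62 higher and TYROBP, at -0.81 ± 0.30, lower, and all 5 genes were called. CTHRC1, in contrast, did not pass the threshold between the secretomes, at -0.10 ± 0.47, and it was -1.33 in basal-secretome minus placebo, beside -1.43 in primed-secretome minus placebo. EFEMP1 was at -0.33 between the secretomes and at -1.0 in basal-secretome minus placebo. RPL4 was at -0.40 and -0.34 in these differences. The median of all 27 ribosomal protein genes was -0.36 between the secretomes, with 3 called lower (2.47% of all genes were). In basal-secretome minus placebo it was -0.04. Of the separated genes named above, 10 of the 12 higher ones and 2 of the 12 lower ones were called between primed-secretome and basal-secretome pigs. They had been chosen on the values of the primed-secretome pigs, which enter this comparison too, so these counts are a description.

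**Figure D5:**
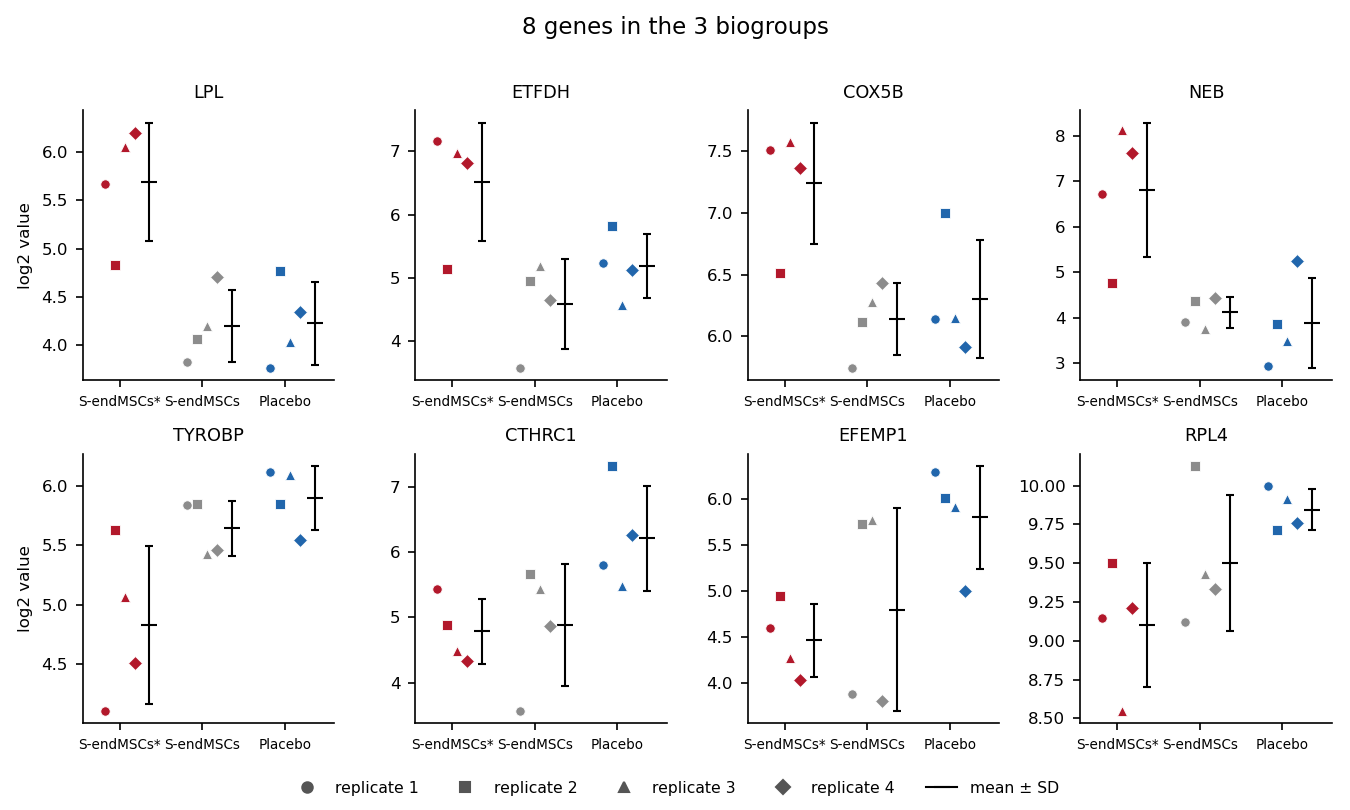
Log2 values of 8 genes in each pig, with AMI/S-endMSCs*, AMI/S-endMSCs and AMI/Placebo from left to right; symbols mark the replicate and bars give the mean ± SD of the 4 pigs. LPL, ETFDH, COX5B and NEB have their highest mean in AMI/S-endMSCs* pigs, with replicate 2 the lowest of that group, while CTHRC1 and EFEMP1 have lower means in both secretome groups than in AMI/Placebo pigs, by 1.43 and 1.33 and by 1.34 and 1.0.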

How the data were processed

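Infarct tissue RNA of 12 pigs, 4 in each of 3 biogroups, was hybridised to GeneChip Porcine Gene 1.1 ST arrays, 1 per pig. The deposited values are on the log2 scale, made by the authors with RMA in the package oligo (versions not given in the sources used here), which corrects background, normalizes arrays by quantiles and summarises probe sets. Such normalization takes the arrays to have like overall distributions, and probe sets of low signal are compressed. The deposited arrays still differed in their spread, with interquartile ranges between 1.66 (basal-secretome replicate 1) and 2.51 (placebo replicate 2). All 27558 probe sets and 12 columns were used, and 0 columns were left out. The number of arrays limits the precision. The labels give the replicates only as numbers, and that each is a separate pig comes from the study's design.

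Names came from the platform annotation, matched by Entrez identifier to the pig reference: 11982 probe sets carried 1 symbol, 373 several and 15203 were unnamed, which left 10912 genes, 969 of them with more than 1 probe set. No gene position is given because no build came with the series.

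The 12 arrays together entered a linear model in limma 3.58.1 (lmFit and eBayes, R 4.3.3) that gave each biogroup its mean, and AMI/S-endMSCs* minus AMI/Placebo and AMI/S-endMSCs* minus AMI/S-endMSCs were taken from it. Genes with an unadjusted p under 0.05 were called, and Benjamini-Hochberg values were computed over all probe sets. The same script was tested on simulated data. Figures were drawn with Python 3.11.15 and matplotlib 3.10.9.

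The comparison and the gene lists were chosen with earlier results of these data known, so no list was tested; lists are described by counts and medians, to be read against the shares of all genes called. Genes were named by rule: up to 12 in each direction with the largest log2 fold change among called, not overlapping and not dim genes; per list up to 4 called members and up to 3 with the highest mean, not all of which are described; the genes of the study's text; and the widest spread of a list described for it. NEB, ANK1, UNC45B, NDUFA13, GUSB, MAN2B1, NR1H3, CDH11, SSR2, PABPC1, SPP1, ACOT13, ACADM, LYN and FN1 were added after their values were seen. The alternatives tried were other scalings (median centring, quantiles), leaving out dim probe sets, eBayes with a trend or robust, array weights, a fit of both biogroups alone, a block for the replicate number, the cardiomyocyte marker mean or the interquartile range of an array as covariate, averaging the probe sets of a gene, and leaving out each array.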

Additional observations from a re-analysis of the deposited data

Results flagged for a closer look

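In 26 of the 340 sets of 4 pigs checked, a gene or list mean had 1 pig far from the other 3. Chance flags about 5% of independent sets with normal spread. The sets here share pigs, and some genes were named for their wide spread, so the 26 cannot be read against that share. The part of any pig in the group differences beyond the values given here was not tested.

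Primed-secretome replicate 2 made up 10 of these. Its log2 values were low for the muscle genes ANK1 (5.0, others 8.15 to 8.66), CDH2 (4.39, others 6.07 to 6.39), MYL2 (9.03, others 11.61 to 11.83) and UNC45B (2.54, others 6.32 to 6.84), and for MAP7D3 (3.04, others 4.10 to 4.18). The means of the cardiomyocyte markers (6.61, others 9.46 to 9.76), of the sarcomere and Z-disc list (5.80, others 8.25 to 8.59) and of fatty acid oxidation (4.63, others 5.77 to 5.83) were low in it too. S100A8 (5.92, others 2.17 to 2.46) and the mean of the BCL2 family and apoptosis list (4.60, others 4.13 to 4.17) were high in it.

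Placebo replicate 4 was low for the matrix and macrophage genes COL1A2 (7.29, others 8.57 to 8.74), FN1 (7.09, others 10.41 to 10.44), LYN (2.88, others 3.44 to 3.54) and SPP1 (4.75, others 9.53 to 9.77), and for the macrophage marker mean (4.12, others 4.76 to 4.78). INSR was high in it (5.99, others 4.75 to 4.76). Its array also had the smallest interquartile range of the placebo arrays, 1.80 (others 2.21 to 2.51). Placebo replicate 3 was low for LIF (2.34, others 3.14 to 3.26), NPPA (2.50, others 5.49 to 5.60), the mean of the cardiac stress and fetal genes (4.20, others 5.01 to 5.15) and that of the insulin-like growth factor system (4.24, others 4.45 to 4.49).

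The rest were single genes. In primed-secretome pigs, replicate 3 was low for LIF (1.96, others 2.51 to 2.55) and RPL7 (2.80, others 3.94 to 4.03), and replicate 1 was high for PHKG1 (3.99, others 2.85 to 3.04) and low for SLC6A8 (4.27, others 4.74 to 4.79). In placebo pigs, replicate 1 was high for IGF1R (5.43, others 4.50 to 4.64) and replicate 2 was low for RBFOX1 (1.72, others 2.29 to 2.38).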

How the results depend on the processing

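All 90 called genes named here kept their direction under every alternative, 33 of them also their call, and 34 kept the call in every fit that left out 1 array, while 42 kept it with the cardiomyocyte marker mean as a covariate. The cause of the changes below was not tested. The 353 genes called became 953 with array weights (504 higher, 449 lower), 586 with the interquartile range as a covariate (273 lower) and 210 with the cardiomyocyte covariate (121 higher, 89 lower), and a filter on dim probe sets left 90 called lower. The 925 probe sets called became 2251 with array weights (1185 higher, 1066 lower) and 1420 with the interquartile range (697 lower).

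With 1 array left out, genes called ran between 229 (without placebo replicate 3) and 864 (without primed-secretome replicate 2), those higher between 122 and 467 and those lower between 75 and 397. Probe sets called ran between 657 and 1969, 346 and 1078 of them higher and 275 and 891 lower. Without placebo replicate 4, 636 genes were called. Of the 90 named genes, 44 lost their call without placebo replicate 3, 43 without primed-secretome replicate 3, 42 without primed-secretome replicate 4 and 39 without replicate 1 of either group. The scar matrix median of -0.25 ran between -0.41 and 0.011, the last without primed-secretome replicate 4. Medians of the sarcomere list ran between 0.65 and 1.74.

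The labels do not say whether the replicate numbers pair the pigs. Same-numbered primed-secretome and placebo pigs, taken as differences from their group means, had correlations of -0.05, 0.04, -0.13 and 0.40. These cannot decide it, because pigs of unlike number also correlated, as primed-secretome replicate 2 did with placebo replicate 3 (0.28). With the replicate number as a block, 409 genes (219 higher, 190 lower) and 1075 probe sets were called.

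Genes not called turned direction as follows. With the cardiomyocyte covariate, ACTC1 was at -0.024, CSRP3 -0.17 and MYL2 -0.22, but these 3 are part of the covariate, which takes out their difference by construction. NPPA was at -0.29 and POSTN at 0.041 with it, and POSTN was at 0.041 with the interquartile range. BMP6 was at 0.26 as the mean of its probe sets, and between -0.21 (without primed-secretome replicate 3) and 0.088 (without primed-secretome replicate 2) with 1 array left out. With 1 array left out, COL3A1 ran between -0.78 (without placebo replicate 4) and 0.072 (without primed-secretome replicate 4), CD47 between -0.034 (without placebo replicate 4) and 0.60 (without placebo replicate 2), and NPPA between -0.53 (without primed-secretome replicate 1) and 1.62 (without primed-secretome replicate 2). POSTN reached 0.35 without primed-secretome replicate 4, and was also above 0 without placebo replicates 1 and 3.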

Other observations

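Lists of other cell types held no calls or 1, and with 3.23% of all genes called, counts of 0 in lists this short say nothing about their members. Endothelial markers had 0 of 6 genes called at a median of -0.23, mesothelial and epicardial markers 0 of 8 at -0.08, red blood cell markers 0 of 4 at -0.10 and Schwann cell and neuron markers 0 of 2 at -0.17. The 5 measured adipocyte markers had LPL as their only called member, at a median of 0.06, and the remaining 4 were not called. None of 14 cell division genes was called, but 13 of 14 were below 0 with a median of -0.29, and their mean was 2.74, 3.83, 2.52 and 2.69 in primed-secretome pigs and 3.22, 3.40, 3.93 and 2.51 in placebo pigs. Wnt signalling had ROR2 as its only called gene of 22, at a median of 0.01. The type I interferon list mean was 4.02, 4.09, 4.47 and 3.53 in primed-secretome pigs and 5.27, 5.07, 3.70 and 3.75 in placebo pigs, so placebo replicates 1 and 2 stood above all other pigs of the comparison and replicates 3 and 4 did not.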
